A study of Solanum tuberosum with 6 samples.

Results

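The 200 transcripts that took the most reads in potato leaves at 25 °C were followed through 3 cultivars and a cold exposure. They were the 200 of 90017 gene identifiers with the highest mean level over the 9 untreated libraries, where the level is CPM, the count of a gene as a part of the total of its library, scaled to 1000000. The untreated levels therefore chose the list, and the untreated levels, ranks and shares of the list are descriptions. They are not tested between untreated cultivars, and a cold comparison, which sets treated beside untreated libraries, uses the libraries that chose the list. The 9 treated libraries took no part in the choice, but a difference between cultivars can carry over to them. CPM is not divided by transcript length, so a rank orders reads and not molecules, and gene lengths were not analysed here.

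The leaves came from virus-free tissue culture seedlings grown for 18 days on MS medium. The treated groups CS-KY130, CS-KY140 and CS-Atlantic were kept at −4 °C for 12 h and the untreated groups KY130, KY140 and Atlantic at 25 °C for 12 h. The treatment field of the labels gives another temperature for the treated groups than their titles do, and the titles' −4 °C is used. Atlantic is described in the study as cold-resistant and KY140 as cold-sensitive, KY130 is a further cultivar of the same series, and all plants are labelled wild type. Each of the 6 groups had 3 libraries.

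Leaves hold a small set of very abundant messenger RNAs, classically those of the photosynthetic apparatus and of carbon fixation, beside a long tail of rare ones. Cultivated potato is an autotetraploid, so a gene is present on several homologous chromosomes, and cultivars can carry different alleles or lack a copy. Reads of a cultivar that carries another allele may be assigned to a related identifier or to none when they are mapped to one cultivar's genome.

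The identifiers follow the annotated genome of Atlantic and spell out the chromosome, a digit from 0 to 4, called the copy digit here, and a running gene number, as in Soltu.Atl.02_2G006340 for chromosome 2, copy 2. The files give no gene names, and 0 of the identifiers matched the RefSeq table of potato, so neither the function of the 200 transcripts nor leaf marker genes could be checked. The study names 12 genes by identifier, from the synthesis of phenylpropanoids, jasmonate and GABA, and none of them was among the 200. The highest of them, the caffeoyl shikimate esterase gene StCSE (Soltu.Atl.04_4G005370), stood at rank 212 with 279 CPM. Reads can be divided among nearly identical copies, so the value of each single identifier is uncertain to that extent.

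Library totals were 11047494 to 14971945 counts (median 11917359), with 45305 to 74628 genes detected. Genes that carry only a number held 2.51 to 5.56% of the counts and were not eligible for the list. KY140 replicate 1 stood apart, with the fewest genes detected (45305, against at least 50417 in every other library). Of 10 members of the list that were under 10 CPM in KY140 replicates 2 and 3, 7 were higher in replicate 1, at 6.58 to 30.9 CPM, and 3 were at 0 in all 3 replicates. Without that library 25 members in place of 24 fell under the 5% level used below for KY140, and the share of KY140 counts in the list was 17.4% in place of 17.7%.

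Levels fell steeply along the list. The first transcript averaged 5786 CPM over the untreated libraries, the tenth 2498 CPM, the fiftieth 738 CPM and the hundredth 463 CPM. At the lower edge, the last 3 members had 292.4, 290.97 and 288.9 CPM (Soltu.Atl.09_0G014200, 10_0G014020 and 01_3G031330), while the first 3 outside had 288.3, 283.2 and 282.7 CPM (07_0G012420, 01_0G017400 and 02_1G022420). The edge is thus not a gap, and the next 200 transcripts, which reach down to rank 400 and 195.9 CPM, serve as the nearest comparison.

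The mean share of all counts held by the list was highest in KY140 at both temperatures. In the treated leaves it held 12.4, 13.6 and 13.2% of the counts of the 3 CS-KY130 libraries, 16.0, 16.3 and 13.3% in CS-KY140, and 10.9, 9.76 and 10.7% in CS-Atlantic. The CS-Atlantic libraries lay below all other treated libraries, and CS-KY140 replicate 3 fell inside the range of CS-KY130. The mean was 15.2 ± 1.64% in CS-KY140 and 10.4 ± 0.60% in CS-Atlantic (SD, n = 3 each), a difference of 4.76 percentage points with an exact two-sided permutation p of 0.1. CS-KY130 averaged 13.1 ± 0.62% and exceeded CS-Atlantic by 2.61 points (exact permutation p = 0.1), and CS-KY140 exceeded CS-KY130 by 2.15 points (exact permutation p = 0.2). With 3 libraries against 3 the smallest p is 0.1, so none of the 3 comparisons could pass 0.05, and their Benjamini-Hochberg values were 0.15, 0.15 and 0.2. The list was chosen on untreated levels of the same cultivars, and differences between cultivars can carry over to the treated libraries. These 3 comparisons are thus not independent of the choice. In bulk leaf RNA, more cells of a type and more RNA per cell cannot be told apart.

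In each cultivar the treated share can be set beside the untreated one, which the choice favours. The list held 13.1 ± 0.62% of the counts in CS-KY130 and 12.4 ± 1.02% in KY130, 15.2 ± 1.64% in CS-KY140 and 17.7 ± 0.69% in KY140, and 10.4 ± 0.60% in CS-Atlantic and 13.0 ± 0.51% in Atlantic (SD, n = 3 each). To remove the cultivar's own untreated libraries from the choice, 200 transcripts were also taken by the untreated libraries of the other cultivars. These held 9.10 ± 0.46% in CS-Atlantic and 11.2 ± 0.46% in Atlantic, and 12.4 ± 1.29% in CS-KY140 and 14.2 ± 0.48% in KY140, without overlap of the libraries in either cultivar (exact permutation p = 0.1 in both). In KY130 such a list held 11.2 ± 0.67% in CS-KY130 and 10.3 ± 0.78% in KY130, where the libraries overlapped (exact permutation p = 0.2).

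**Figure D1:**
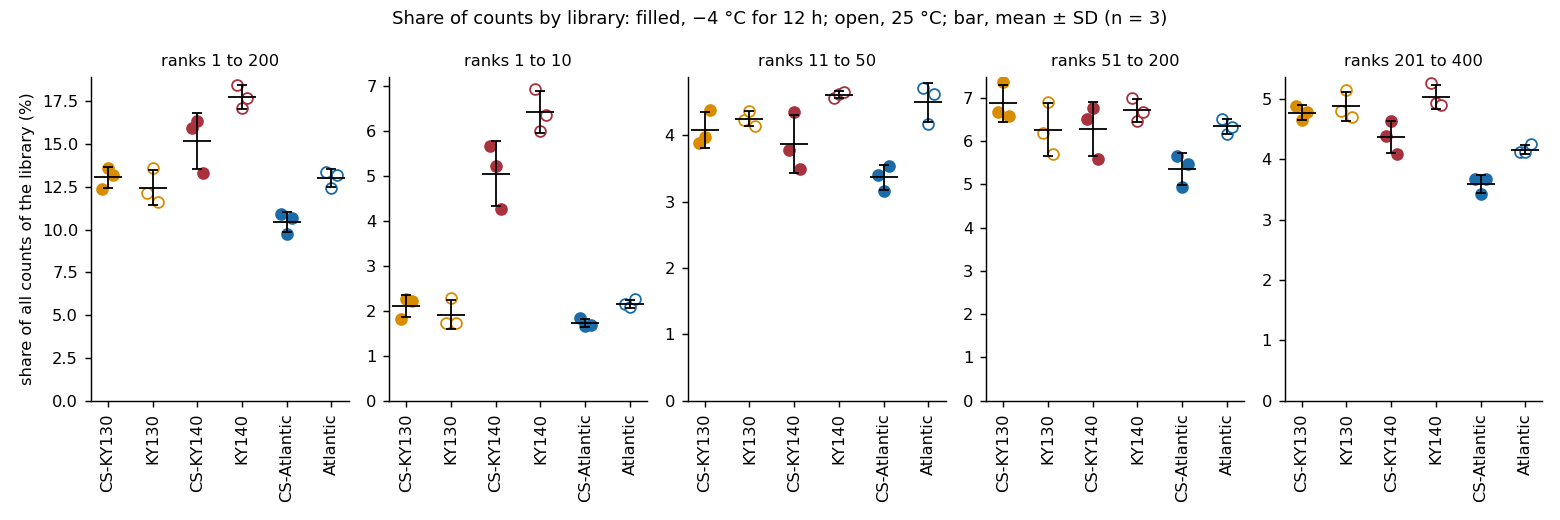
Share of all counts of a library (%, y axis) held by the 200 most abundant transcripts, by 3 rank bands of them and by the next 200, for 3 libraries a group. Filled points are treated and open points untreated libraries, and bars give the mean ± SD. Ranks 1 to 10 held at least 4.25% in every CS-KY140 library and at least 5.99% in every KY140 library. They held at most 2.28% in any library of the other cultivars. The untreated KY140 levels helped to set the ranks, which favours this difference.

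The excess of KY140 lay mostly in the first ranks. The untreated KY140 levels helped to set the ranks, so a transcript high in KY140 alone could reach them. The choice thus favoured this place of the excess, and it is a description. The 10 highest transcripts held 5.04 ± 0.72% of the counts in CS-KY140 and 6.42 ± 0.47% in KY140, while they held 2.10 ± 0.24% in CS-KY130 and 1.91 ± 0.32% in KY130, and 1.73 ± 0.09% in CS-Atlantic and 2.16 ± 0.09% in Atlantic (SD, n = 3 each). Ranks 51 to 200 differed less between the cultivars, with 6.87 ± 0.42% in CS-KY130, 6.28 ± 0.62% in CS-KY140 and 5.35 ± 0.37% in CS-Atlantic, beside 6.27 ± 0.61% in KY130, 6.71 ± 0.26% in KY140 and 6.34 ± 0.17% in Atlantic. In the group means, 19 members made up 50% of the list's counts in CS-KY140 and in KY140, against 38 in CS-Atlantic and in Atlantic, 32 in CS-KY130 and 34 in KY130.

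Of the 5 highest transcripts, 4 were highest in KY140 and 1 was nearly without reads there. Soltu.Atl.02_2G006340, at rank 1, had 15.5, 15.1 and 12.7 CPM in CS-KY130 and 6.02, 7.12 and 3.42 CPM in KY130. It had 14822, 10361 and 7697 CPM in CS-KY140 and 17926, 12344 and 15158 CPM in KY140, and 2054, 1470 and 2042 CPM in CS-Atlantic and 2056, 2212 and 2365 CPM in Atlantic. The cultivars did not overlap in either temperature, with KY140 high, Atlantic between and KY130 almost without reads. In the treated libraries CS-KY140 exceeded CS-Atlantic by a log2 fold change (log2FC) of 2.65 (standard error, SE, 0.29, edgeR adjusted p = 0.000224). The transcript took rank 1 through its untreated KY140 level, and a difference between cultivars can carry over to the treated libraries. This direction was thus set by the choice, and the p-value is not independent of it. CS-KY130 lay below CS-Atlantic with a log2FC of −7.12 (SE 0.26, edgeR adjusted p = 4.11e-05).

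The transcript at rank 3, Soltu.Atl.10_2G002740, showed the reverse. It had 6182, 9749 and 7774 CPM in CS-KY130 and 4587, 9069 and 4455 CPM in KY130, and 5668, 4959 and 5409 CPM in CS-Atlantic and 5563, 7112 and 4838 CPM in Atlantic. In CS-KY140 only 4 reads were counted in 3 libraries, all in replicate 2, and in KY140 replicate 1 held 30.9 CPM (385 reads) and the others none. The member that stood highest in CS-KY130 and CS-Atlantic was thus all but unread in CS-KY140 (adjusted p = 6.92e-05 for CS-KY130 against CS-KY140 and 2.63e-05 for CS-KY140 against CS-Atlantic by edgeR, where a fold on so few reads is not given). Its rank came from the untreated KY130 and Atlantic libraries, so this direction was likewise set by the choice, and the p-values are not independent of it.

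Ranks 2, 4 and 5 were highest in KY140. Soltu.Atl.09_4G021390 averaged 3681 ± 851 CPM in CS-KY130, 8983 ± 2571 CPM in CS-KY140 and 864 ± 97.5 CPM in CS-Atlantic (SD, n = 3 each), and the order held in every library. Soltu.Atl.03_3G005760 had 478, 131 and 553 CPM in CS-KY130, 5535, 7061 and 5943 CPM in CS-KY140, and 1573, 1332 and 1148 CPM in CS-Atlantic. Soltu.Atl.02_2G024030 averaged 1190 ± 204 CPM in CS-KY130, 5719 ± 481 CPM in CS-KY140 and 571 ± 95.8 CPM in CS-Atlantic. All 3 were higher in CS-KY140 than in CS-Atlantic, with log2FC of 3.47, 2.30 and 3.42 (SE 0.26, 0.24 and 0.24, edgeR adjusted p = 5.44e-05, 0.00018 and 4.13e-05). All 3 also ranked high through their untreated KY140 levels, so this direction, too, was set by the choice, and the p-values are not independent of it. The lower level of Soltu.Atl.03_3G005760 in CS-KY130 than in CS-Atlantic (log2FC −1.90, adjusted p = 0.0219 by edgeR) was lost without any one of the CS-Atlantic libraries (adjusted p from 0.0572 to 0.0827).

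None of the 5 was called changed by cold in any cultivar by edgeR, at a |log2FC| of at least 1 and a false discovery rate (FDR) under 0.05. Their log2FC after cold lay between −0.38 and −0.01 in Atlantic and between −0.04 and 1.50 in KY130. In KY140 the 4 that could be tested lay between −0.42 and −0.20. The largest value, 1.50 for Soltu.Atl.02_2G006340 in KY130, had an adjusted p of 0.307 (DESeq2 0.124), though every CS-KY130 library exceeded every KY130 library. In a joint fit of 18 libraries it was called (adjusted p = 0.00371).

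How the reads of a member were spread over the cultivars was measured as each cultivar's percentage of the sum of the 3 untreated group means. By this measure 85 members were highest in KY140, 72 in KY130 and 43 in Atlantic. Only 46 members had each cultivar between 20 and 50%, as did 48 of the next 200. At the other end, 52 members had under 5% in at least 1 cultivar (3 of them in 2), as did 40 of the next 200. These gaps lay in KY130 (31 members) and in KY140 (24), and at 25 °C no member was under 5% in Atlantic, the cultivar whose annotation supplied the identifiers. Atlantic supplied at least 7.47% of the untreated sum of every member, while the lowest share was 0 in the other cultivars. Among treated groups 1 member was under 5% in CS-Atlantic (3.18%), and 28 in CS-KY130 and 23 in CS-KY140. How reads that match no Atlantic copy were handled is not given in the sources used here, so absence of a copy and absence of its expression cannot be told apart.

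The same spread was present in the treated libraries. Of the 55 pairs of a member and a cultivar under 5% at 25 °C, 49 were under 5% after cold too. The leading cultivar was the same at both temperatures for 158 of the 200 members, and the share of the leading cultivar moved by a median of 5.76 percentage points. Across the members, log2(CPM + 1) of treated and untreated libraries correlated with Pearson's r of 0.802 to 0.864 in Atlantic, 0.929 to 0.96 in KY130 and 0.892 to 0.963 in KY140, beside 0.915 to 0.993 between replicates. Between treated cultivars r was −0.086 to 0.173. These correlations are over 200 genes that were chosen for a high mean, which are not independent, and they describe the libraries only.

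**Figure D2:**
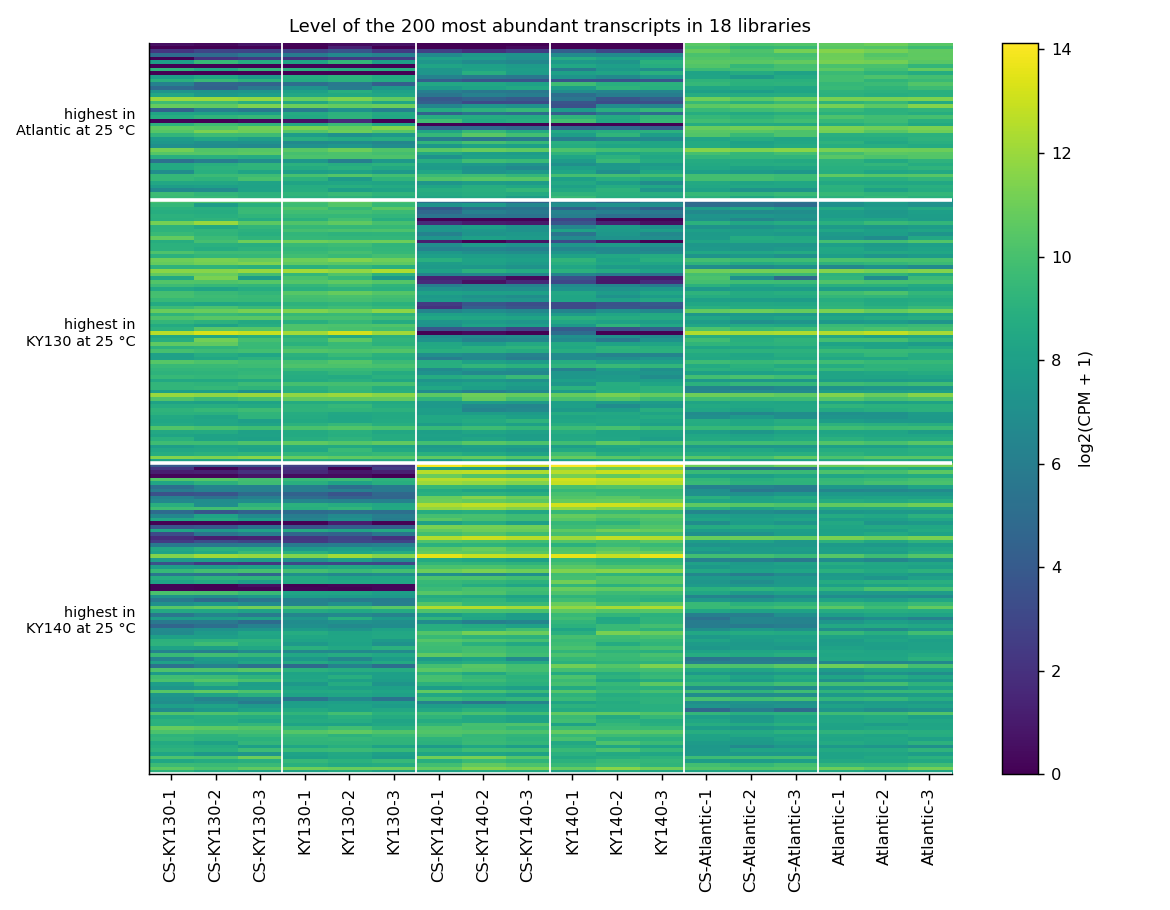
Level of the 200 transcripts (rows, log2(CPM + 1) by colour) in 18 libraries (columns, treated left of untreated in each cultivar), sorted by the cultivar with the highest untreated mean and then by its share. Dark cells mark low levels, which lie in the KY130 and KY140 columns; at 25 °C 31 members had under 5% of their summed level in KY130 and 24 in KY140, and the lowest share in Atlantic was 7.47%.

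The member with the largest part of its untreated level in a single cultivar was, for Atlantic, Soltu.Atl.10_1G002240 at rank 76, with 99.98% there. It had 1468, 1136 and 1239 CPM in CS-Atlantic and 1618, 2077 and 1417 CPM in Atlantic. No read was counted in any CS-KY140 or KY140 library, and CS-KY130 and KY130 had at most 0.773 CPM. This member was named for its share in Atlantic and was in the list only through the Atlantic libraries, so no fold or test of this difference is given. For KY130 the member was Soltu.Atl.03_4G011350 at rank 93 (83.9%), with 1032, 1115 and 1152 CPM in CS-KY130 against 24.8, 44.6 and 41.7 CPM in CS-Atlantic and 37.8, 26.9 and 19.7 CPM in CS-KY140. It was named for its share in KY130 and was in the list only through the KY130 libraries, so no test of this difference is given. The CS-Atlantic libraries of Soltu.Atl.03_4G011350 all lay below the Atlantic ones, which had 143, 256 and 151 CPM, and it fell there after cold (log2FC −2.19, SE 0.29, edgeR adjusted p = 0.00158). For KY140 the member was the transcript at rank 1, with 87.2%.

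Transcripts that sit side by side on a chromosome could differ in this respect. Neighbours, set as members within 100 of each other in gene number, which is 10 steps of the numbering, formed 12 clusters with 26 members, against 7 clusters with 15 genes in the next 200. In 6 clusters all members had the same leading cultivar and in 6 they did not. The cluster on copy 4 of chromosome 9, singled out after its values were seen, held 3 members. Its first, Soltu.Atl.09_4G021390, was highest in KY140 as described. The next, Soltu.Atl.09_4G021400, had 1210 ± 67.1 CPM in CS-Atlantic, 211 ± 61.5 CPM in CS-KY140 and 2.46 ± 2.24 CPM in CS-KY130 (SD, n = 3 each). The third, Soltu.Atl.09_4G021420, had 862 ± 206 CPM in CS-Atlantic, while 4 reads were counted over the CS-KY140 libraries and 1 read over the CS-KY130 libraries. These last 2 were in the list only through the untreated Atlantic libraries, so no test of their higher level in CS-Atlantic is given.

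A pair on chromosome 2, also chosen after its values were seen, had opposite gaps. Soltu.Atl.02_1G005240, at rank 16, had 4031, 4188 and 3564 CPM in CS-KY130 and 1875, 2645 and 1617 CPM in KY130. In CS-KY140 it had 14.7, 21.8 and 15.4 CPM and in KY140 45.7, 12.3 and 19.3 CPM. The rank 1 transcript Soltu.Atl.02_2G006340, on another copy of the chromosome, was nearly unread in KY130 and high in KY140. Both were present in every Atlantic library, with 2033, 1435 and 2021 CPM in CS-Atlantic and 2443, 2441 and 2588 CPM in Atlantic for Soltu.Atl.02_1G005240. Whether the identifiers are alleles of a gene is not given in the files, and no sequence was compared.

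Copy 2 held the largest part of the list's counts in KY140. Its 42 members held 39.0 ± 1.01% of the list's counts in CS-KY140 and 40.3 ± 0.40% in KY140, against 18.2 ± 2.27% in CS-KY130 and 16.2 ± 1.83% in KY130, and 21.9 ± 0.34% in CS-Atlantic and 22.5 ± 0.87% in Atlantic (SD, n = 3 each). The libraries of KY140 did not overlap those of the other cultivars at either temperature. Without the 10 highest transcripts, an alternative added after the values were seen, copy 2 still held 31.8 ± 0.35% in CS-KY140, against 12.9 ± 1.51% in CS-KY130 and 14.4 ± 0.15% in CS-Atlantic. Over all identifiers and not only the list, copy 2 held 27.4 ± 0.52% of their counts in CS-KY140, 18.2 ± 0.52% in CS-KY130 and 21.7 ± 0.13% in CS-Atlantic. Genes that carry only a number are not in this total. Of the 42 members on copy 2, 27 were highest in KY140, 9 in KY130 and 6 in Atlantic, and of the 51 on copy 3, 20 were highest in KY140, 24 in KY130 and 7 in Atlantic.

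**Figure D3:**
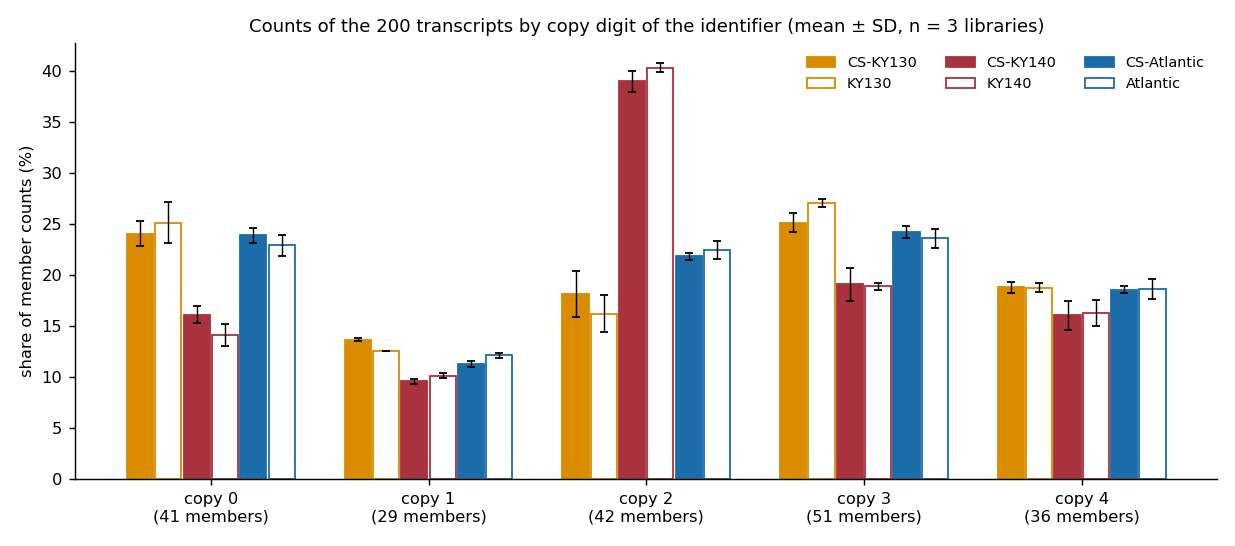
Share of the list's counts (%, y axis) by the copy digit of the identifier (x axis) in each group; filled bars are treated and open bars untreated groups, with the SD over 3 libraries. The bars of copy 2 reach 39.0% in CS-KY140 and 40.3% in KY140, against 16.2 to 22.5% in the other groups.

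Identifiers with the copy digit 0 made up 41 of the 200 members (20.5%), against 10.3% of all identifiers and 25 of the next 200, and scaffolds outside the chromosomes gave 1 member, against 6.68% of identifiers. What the digit 0 stands for is not given in the sources used here. By chromosome, the 22 members of chromosome 2 held 23.8 ± 1.80% of the list's counts in CS-KY140 and 27.9 ± 2.03% in KY140. They held 10.97 ± 0.90% in CS-KY130 and 7.35 ± 0.63% in KY130, and 10.2 ± 1.19% in CS-Atlantic and 11.4 ± 1.17% in Atlantic. Ranks 1, 5 and 9 were among these 22, at 10960, 5719 and 3630 CPM in CS-KY140. Over all identifiers, chromosome 2 held 13.6 ± 0.53% of their counts in CS-KY140, 10.6 ± 0.13% in CS-KY130 and 11.2 ± 0.02% in CS-Atlantic. The 24 members of chromosome 9 held 22.0 ± 0.36% in CS-Atlantic and 20.4 ± 1.92% in Atlantic, and 13.4 to 15.6% on average in the 4 groups of the other cultivars (SD, n = 3 each). Over all identifiers, chromosome 9 held 9.36% of their counts in CS-Atlantic, 8.29% in CS-KY130 and 8.18% in CS-KY140.

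The list is a blend of the cultivars. When each untreated cultivar was given its own 200 highest transcripts, 48 were common to all 3, which is 24.0% of each list. Of the 200 members, 48 stood in the own lists of 3 cultivars, 85 in those of 2, 66 in that of 1 and 1 in none. Taking the 200 highest of the 9 treated libraries instead kept 135 members. Of the 65 that left, 52 stayed within rank 400 in the treated libraries, and 8 of the 10 highest remained within the 10 highest.

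Between treated cultivars, members on both sides were common. Of 200 members tested, 74 were higher and 51 lower in CS-KY140 than in CS-Atlantic, where 18.8% of the 58207 genes tested were higher and 27.6% lower. In CS-KY130 against CS-Atlantic 49 were higher (9.39% of the 55243 genes tested) and 40 lower (20.7%), and in CS-KY130 against CS-KY140 66 were higher (20.0% of the 52961 genes tested) and 65 lower (23.6%), with 2 members not tested. The next 200 gave 70 higher and 48 lower in CS-KY140 than in CS-Atlantic, 58 and 32 in CS-KY130 against CS-Atlantic, and 60 and 57 in CS-KY130 against CS-KY140. In all, 160 members were called in at least 1 of these comparisons, which share their treated libraries, and 43 in all 3. Calls over several comparisons were not counted for all genes, so nothing is read from the 160 and 43. A high untreated level in some cultivars can bring a transcript into the list, and such a difference can carry over to the treated libraries. Nothing is therefore read from the counts of these comparisons against the background.

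The median log2FC of the members was 0.26 in CS-KY140 against CS-Atlantic (all genes −0.20), 0.20 in CS-KY130 against CS-Atlantic (all genes −0.28) and −0.06 in CS-KY130 against CS-KY140 (all genes −0.30). Upper quartile scaling moved these medians of all genes up by 0.15, 0.23 and 0.13 and turned the member median of CS-KY130 against CS-KY140 to 0.07, and RLE moved that of all genes in CS-KY130 against CS-Atlantic by −0.11. Setting the 2 to 4 members at 0 in a whole group to a floor of 3 reads left the 3 member medians as they were. Members varied less between libraries than most genes, with a median biological coefficient of variation of 26.6 to 33.3% in these fits, against 54.1 to 71.6% over all genes tested. The next 200 were close to the members, at 27.1 to 33.9%, so the low spread is not particular to the list. The parts of the low spread and of the choice in the higher share of calls were not tested.

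The change after cold was tested for each member in each cultivar. In Atlantic, 5 of 200 were higher in CS-Atlantic and 15 lower, where 5.79% of the 57775 genes tested were higher and 2.31% lower. In KY130, 6 of 191 were higher in CS-KY130 and 2 lower, against 0.844 and 0.0842% of the 48717 genes tested. In KY140, 4 of 195 were higher in CS-KY140 and 6 lower, against 0.886 and 0.158% of the 47973 genes tested. The members were chosen on the untreated libraries of these same comparisons, which favours lower values after cold, so nothing is read from the counts against the background. The lists chosen on the other cultivars gave 5 higher and 16 lower in Atlantic, 7 and 3 of 190 in KY130 and 4 and 4 of 191 in KY140.

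Many member calls in KY130 and KY140 were lost when any of several libraries was left out, which also leaves fewer libraries for the test. Over these fits the log2FC in KY140 stayed at 2.03 to 2.42 for Soltu.Atl.07_0G010630 and at −3.80 to −3.15 for Soltu.Atl.02_2G028360. For Soltu.Atl.01_3G031330 it stayed at −2.67 to −2.27. Without CS-KY140 replicate 1 no member was called in KY140 (51 had an unadjusted p under 0.05 by edgeR), and the total of 10 fell to 6 without CS-KY140 replicate 2, 4 without CS-KY140 replicate 3, 3 without KY140 replicate 2 and 1 without KY140 replicate 3. In KY130 the total of 8 fell to 2 without KY130 replicate 1 or without KY130 replicate 3 and to 4 without CS-KY130 replicate 2, and no member was lower there without any one of these libraries or KY130 replicate 2. Counts also depended on the tool, with 17 members higher and 7 lower in KY130 and 6 and 10 in KY140 by DESeq2. Upper quartile scaling left 2 higher and 6 lower in KY140.

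Across the 3 cultivars 29 members were called at least once, 11 of them higher and 18 lower, and none in both directions. Of these, 1 was higher in all 3 cultivars and 2 in 2 of them, while 5 were lower in 2 cultivars and none in all 3. Calls over several cultivars were not counted for all genes, so nothing is read from these counts. The median log2FC of the members was −0.29 in Atlantic (all genes −0.07), −0.02 in KY130 (all genes −0.07) and −0.17 in KY140 (all genes 0.07). For the next 200 it was −0.19, −0.05 and −0.25, and for the lists chosen on the other cultivars −0.28 in Atlantic, 0.08 in KY130 and −0.12 in KY140. The 10 highest transcripts had no call in any cultivar, with medians of −0.33 in Atlantic, 0.35 in KY130 and −0.20 in KY140.

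**Figure D4:**
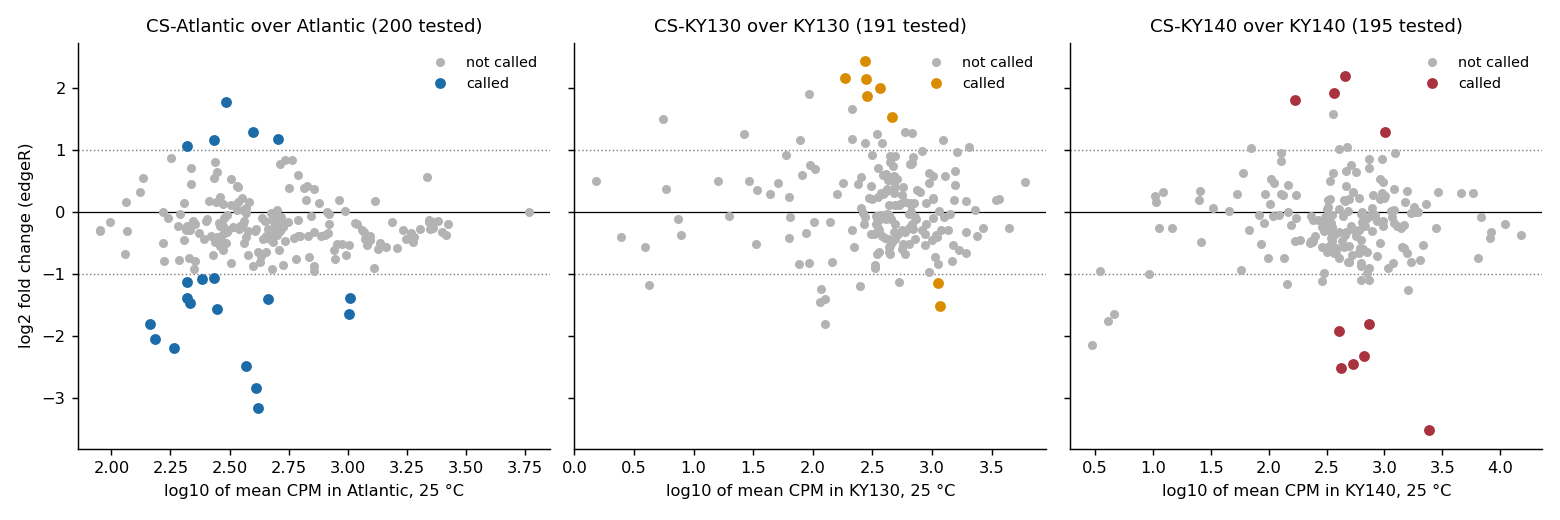
Log2 fold change of each member after cold (y axis) against its mean untreated CPM in the same cultivar (x axis, log10), one panel a cultivar; coloured points passed an FDR under 0.05 and a |log2FC| of at least 1 (dotted lines). Called members number 20 of 200 in Atlantic, 8 of 191 in KY130 and 10 of 195 in KY140. The untreated libraries enter both axes, so the slope of the cloud is not read.

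The member that rose in all 3 cultivars was Soltu.Atl.07_0G010630, at rank 134. It had 1152, 1049 and 1968 CPM in CS-KY130 against 265.5, 339 and 227 CPM in KY130, 2107, 2427 and 1316 CPM in CS-KY140 against 384, 441 and 550.4 CPM in KY140, and 832, 908 and 978 CPM in CS-Atlantic against 292, 382 and 520 CPM in Atlantic. Every treated library lay above every untreated library of its cultivar. The log2FC was 2.44 in KY130 (SE 0.31, edgeR adjusted p = 0.00962), 2.19 in KY140 (SE 0.30, edgeR adjusted p = 0.012) and 1.30 in Atlantic (SE 0.22, edgeR adjusted p = 0.00524). The call was lost in KY130 without KY130 replicate 1 (adjusted p = 0.0803) or replicate 3 (0.0599), and in KY140 without CS-KY140 replicate 1 (0.0707), KY140 replicate 2 (0.0776) or KY140 replicate 3 (0.0731). Its neighbour Soltu.Atl.07_0G010620, at rank 66 and looked at after the values were seen, had log2FC of −0.10 in KY130, −0.50 in KY140 and −0.41 in Atlantic and no call.

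Soltu.Atl.10_0G001360, at rank 144, rose in 2 cultivars. It had 620.5, 838 and 808 CPM in CS-KY130 against 226, 141.5 and 187 CPM in KY130, with a log2FC of 2.17 (SE 0.24, edgeR adjusted p = 0.00478). In CS-Atlantic it had 1243, 746 and 1157 CPM against 480.1, 512 and 522 CPM in Atlantic, with a log2FC of 1.17 (SE 0.20, edgeR adjusted p = 0.00678), which a joint fit of 18 libraries did not call (adjusted p = 0.154). In CS-KY140 it had 675, 1435 and 909.7 CPM against 241, 604 and 242 CPM in KY140, without overlap, and the log2FC of 1.58 was not called by edgeR (adjusted p = 0.159) but was by DESeq2 (adjusted p = 0.011) and by edgeR without a filter or over 18 libraries.

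Among members that fell, Soltu.Atl.02_2G028360 at rank 30 had the largest decrease. It had 261, 245 and 79.99 CPM in CS-KY140 against 2834, 1825 and 2569 CPM in KY140, and 44.6, 42.8 and 41.7 CPM in CS-Atlantic against 398, 472 and 386 CPM in Atlantic. The log2FC was −3.53 in KY140 (SE 0.46, edgeR adjusted p = 0.0095) and −3.16 in Atlantic (SE 0.17, edgeR adjusted p = 2.78e-05). In KY130 it was nearly unread, with at most 3.69 CPM in CS-KY130 and 4.26 CPM in KY130. The KY140 call was lost without CS-KY140 replicate 1 or KY140 replicate 3 (adjusted p = 0.0532 and 0.0531), and the Atlantic call in the joint fit of 18 libraries (adjusted p = 0.0506). In Atlantic its fall does not rest on the choice of the list, since it was also among the 200 chosen without the Atlantic libraries, whereas in KY140 it was chosen through the KY140 libraries.

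Soltu.Atl.01_3G031330, the last member at rank 200, had 59.2, 84.9 and 77.7 CPM in CS-Atlantic against 172, 247 and 209 CPM in Atlantic (log2FC −1.38, SE 0.21, edgeR adjusted p = 0.00291). It had 117, 70.0 and 85.2 CPM in CS-KY140 against 630.3, 369 and 592 CPM in KY140 (log2FC −2.45, SE 0.33, edgeR adjusted p = 0.01). In CS-KY130 it had 51.1, 51.6 and 29.5 CPM against 116, 138 and 127 CPM in KY130 (log2FC −1.40), which DESeq2 called (adjusted p = 0.000912) and edgeR did not (adjusted p = 0.0756). The treated libraries lay below the untreated ones in each cultivar. The KY140 call was lost without CS-KY140 replicate 1 or 3 or KY140 replicate 3 (adjusted p from 0.0502 to 0.0582), and this member, too, entered the list through KY140.

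**Figure D5:**
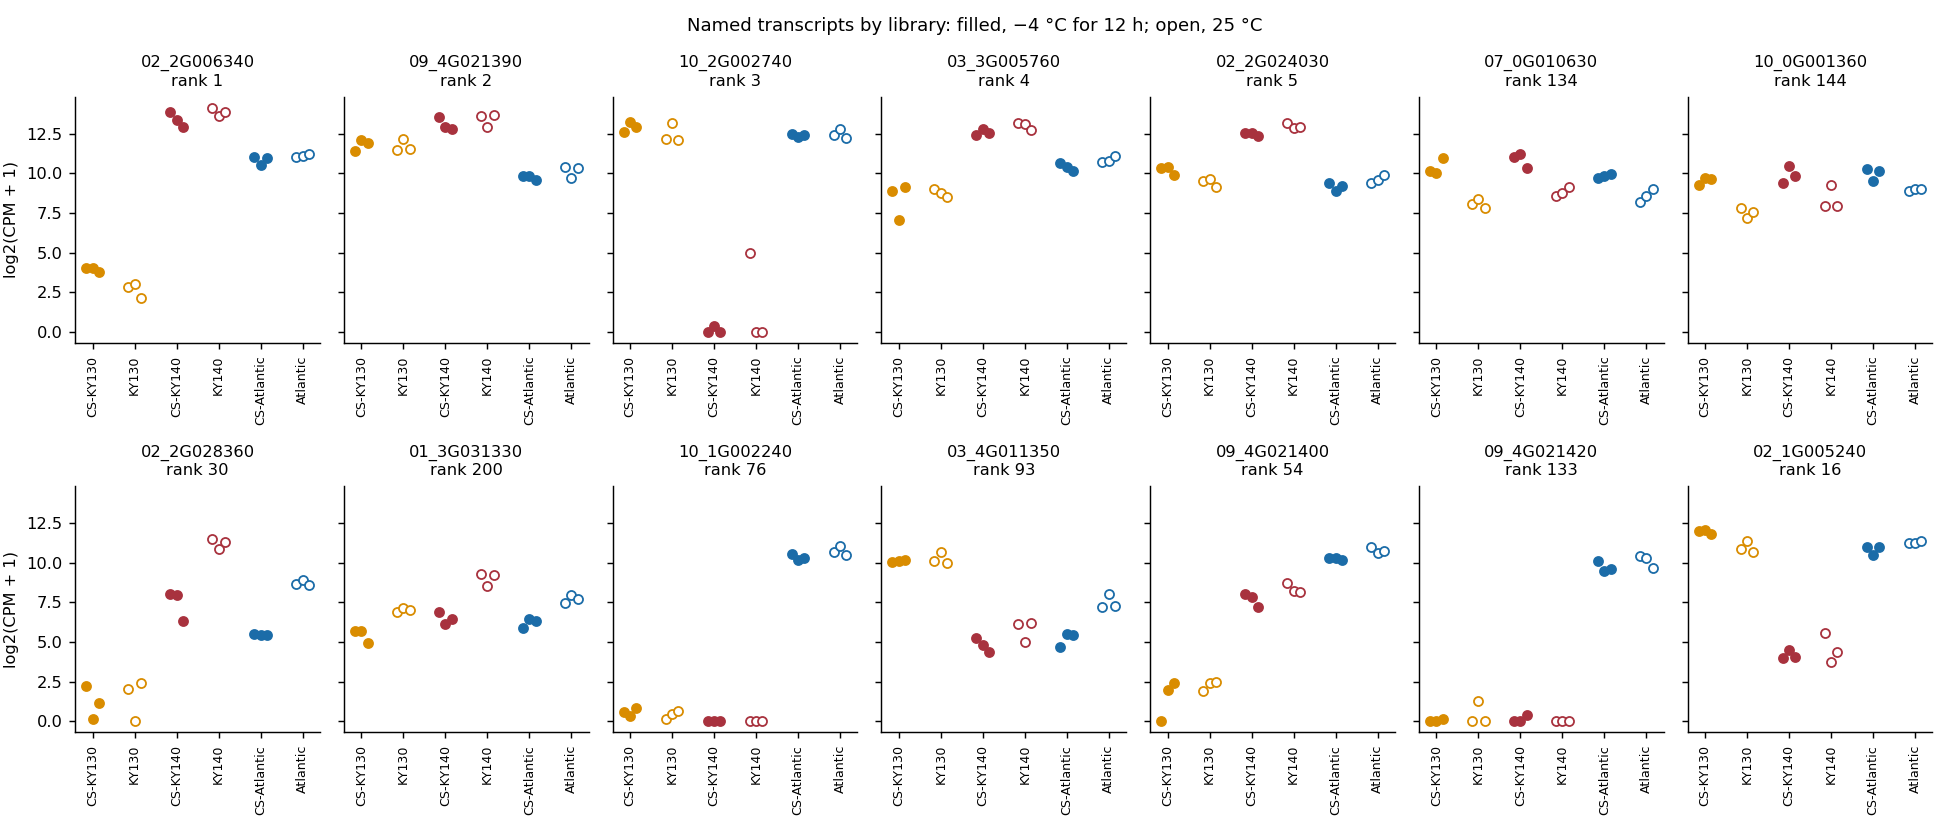
Level of the 14 members shown by library (y axis, log2(CPM + 1)) in 6 groups (x axis), filled for treated and open for untreated libraries. Soltu.Atl.07_0G010630 and 10_0G001360 lie higher and 02_2G028360 and 01_3G031330 lower in treated than untreated leaves of Atlantic and KY140, while the first 5 panels differ mainly by cultivar.

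Whether a member responded to cold differently in 2 cultivars was tested by the interaction at an FDR of 0.05. No member passed by edgeR for the response of Atlantic minus that of KY140 (0.0103% of the 67894 genes tested), of Atlantic minus KY130 (0.0415% of 67423) or of KY130 minus KY140 (0.00154% of 64732). At an unadjusted p under 0.05 by edgeR the counts were 26, 73 and 51 members, against 5863, 5861 and 4509 of all genes tested. For the next 200 they were 28, 57 and 38. The untreated libraries that chose the list enter these tests, so nothing is read from the counts against the background. DESeq2 called 3, 21 and 1, for which the share of all genes is not given here. For Atlantic minus KY130 edgeR called 11 members without CS-KY130 replicate 3, 2 without KY130 replicate 2 and 1 without CS-KY130 replicate 1. For Atlantic minus KY140 it called 2 without KY140 replicate 2 and 1 without KY140 replicate 1. Calls that differ between cultivars in the cold comparisons are therefore not shown to be different responses.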

How the data were processed

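Leaf poly(A) RNA of 3 potato cultivars was sequenced from strand-specific libraries, and each group is 1 record in the labels with 3 numbered libraries, which the study's methods call biological replicates. The authors deposited whole-number counts per gene for 114281 genes, not normalized. Not given in the sources used here: the aligner, the counter, the genome build, the strand setting and what was done with reads that fit several copies. All 18 count columns were used, and a table of identifiers was not.

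CPM was scaled by library totals. The members, the lists and the alternatives were chosen with earlier results of these data known. Named transcripts are the 5 highest, any of the study's 12 named genes, the 2 that rose and 2 that fell in the most cultivars (ties by mean log2FC), the member with the largest part of its untreated CPM in each cultivar and the 3 transcripts on each side of rank 200. A few others are marked as chosen after their values were seen.

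Counts were tested with edgeR 4.0.16 (R 4.3.3, limma 3.58.1) on all genes kept by filterByExpr (minimum count 10), with TMM and the quasi-likelihood test, in 6 libraries a comparison and 12 for an interaction. A call needs an FDR under 0.05 (Benjamini-Hochberg) with a |log2FC| of 1 or more. Standard errors come from the F statistic. Shares were compared by exact permutation (scipy 1.17.1). Alternatives were DESeq2 1.42.0, RLE and upper quartile scaling, TMM on other genes, no filter, no fold threshold, the replicate number as a block, a fit over all 18 libraries, other choices of the list and leaving out each library. The edgeR fits were tested on simulated data. The p-values measure the spread between these libraries, and whether replicates were exposed to cold separately is not stated. Intervals and floors cover counting error only.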

Additional observations from a re-analysis of the deposited data

Results flagged for a closer look

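Among the 200 highest rows of the whole table at 25 °C, 6 were genes that carry only a number and so were outside the list, with mean untreated levels of 320.1 to 724 CPM. Their summed level was 2361 to 7504 CPM in the KY130 libraries and 4601 to 9160 CPM in CS-KY130, and 1037 to 1540 CPM in Atlantic against 2380 to 3410 CPM in CS-Atlantic. In KY140 it was 1991 to 3636 CPM against 2285 to 2974 CPM in CS-KY140. Treated and untreated libraries overlapped in KY130 and KY140.

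The interaction test of DESeq2 called 3 members for Atlantic minus KY140, 21 for Atlantic minus KY130 and 1 for KY130 minus KY140 at an FDR of 0.05. The share of all genes called by DESeq2 is not given here, so a different response is not shown. By edgeR no member passed in any of the 3 tests. There 26, 73 and 51 members had an unadjusted p under 0.05, against 5863 of 67894, 5861 of 67423 and 4509 of 64732 genes tested.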

How the results depend on the processing

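The shares of counts moved with the choice of the 200 transcripts. Ranked by the lowest cultivar mean they were 10.8% in CS-KY130, 11.7% in CS-KY140 and 7.15% in CS-Atlantic, and 10.3% in KY130, 13.03% in KY140 and 8.503% in Atlantic. Ranked by mean log2(CPM + 1) they were 9.57% in CS-Atlantic, 11.6% in Atlantic and 17.0% in KY140, by median CPM 16.95% in KY140, and with numbered genes left out of the total 13.7% in CS-KY130 and 13.7% in Atlantic. Leaving out a library gave 12.8 to 13.4% in CS-KY130, 14.6 to 16.1% in CS-KY140, 10.2 to 10.8% in CS-Atlantic, 11.9 to 12.9% in KY130, 17.4 to 18.1% in KY140 and 12.8 to 13.3% in Atlantic.

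Of the counts of members changed by cold, those in KY130 were 17 higher and 7 lower by DESeq2, 16 and 8 without a filter and 15 and 5 in a joint fit of 18 libraries. In KY140 10 were lower by DESeq2, 14 without a filter, and 2 were higher with upper quartile scaling. In Atlantic 11 were higher and 29 lower without a fold threshold. The cause was not tested in any of these. Leaving out a library gave 4 to 6 higher and 12 to 18 lower in Atlantic, 2 to 7 and 0 to 2 in KY130, and 0 to 3 and 0 to 6 in KY140.

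Between treated cultivars, all counts stayed within 1.5 times those reported under every alternative. Leaving out a library gave 70 to 76 higher and 51 to 53 lower in CS-KY140 against CS-Atlantic, 43 to 49 and 36 to 41 in CS-KY130 against CS-Atlantic, and 59 to 66 and 62 to 69 in CS-KY130 against CS-KY140. Members called by the interaction test of DESeq2 numbered 3 for Atlantic minus KY140, 21 for Atlantic minus KY130 and 1 for KY130 minus KY140, and by edgeR without a library 0 to 2, 0 to 11 and 0.

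Whether replicate numbers mark pairs is not stated in the sources used here. Deviations of same-numbered libraries correlated at −0.075 to 0.195 and those of differently numbered ones at −0.239 to 0.163. With 3 libraries a group these values cannot settle the question. With the replicate number as a block, 5 members were higher and 15 lower in Atlantic, 8 and 2 in KY130, and 3 and 4 in KY140.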
